A study of Homo sapiens with 288 samples.

Results

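This section describes 10 genes of the human pluripotency network, POU5F1, NANOG, SOX2, LIN28A, LIN28B, DPPA4, TDGF1, GDF3, ZFP42 and SALL4, in single cells that had been taken out of the pluripotent state. They were chosen by name, as widely used pluripotency genes, and found by symbol among the 17492 genes of the expression tables. Values were obtained for 9 of the 10, and ZFP42 was not analysed here.

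Pluripotent human stem cells are held in their state by the transcription factors POU5F1 (OCT4), SOX2 and NANOG, which bind together at many enhancers, including their own. Around this core act the zinc-finger factor SALL4, the chromatin-associated protein DPPA4, the RNA-binding proteins LIN28A and LIN28B, which block maturation of the let-7 microRNAs, and the NODAL co-receptor TDGF1 (CRIPTO) with GDF3, a secreted ligand of the TGF-beta family. These genes are widely used as markers of undifferentiated cells, and several of them are also active in germ cells or in early embryonic and extraembryonic lineages.

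The cells came from H1, an established human embryonic stem cell line. Endothelial cells (EC, 45 cells) were made by 2 days in E8 medium with BMP4 at 5 ng/ml and Activin A at 25 ng/ml, followed by 3 days in which the supplements were VEGF and WNT. Trophoblast-like cells (TB, 51 cells) were made in E7, which is E8 lacking FGF2, with BMP4 at 50 ng/ml and SB431542, an inhibitor of the receptors for Activin and NODAL. Single cells were captured on a Fluidigm C1 chip, full-length cDNA was amplified, and the stored cDNA of the same 96 cells was made into libraries in 3 experiments: EQ, in which the cDNA input was equalized, EQ-Vary, in which the equalized libraries were pooled in unequal volumes, and EQ-75%. EC and TB thus differed in medium, signals and inhibitor together, and no culture replicate was named, so each cell type was 1 sample in each experiment. No test between EC and TB was possible, no p-value is given, and every SD below is a spread between cells, not an error of a condition. Undifferentiated H1 cells were not analysed here, so no level below is relative to the starting cells.

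After the study's limits on cell quality, 38 EC and 48 TB cells remained in EQ, 38 and 46 in EQ-Vary, and 39 and 50 in EQ-75%. Median totals lay between 1499256 and 2025140 counts per cell over the 6 groups, and single cells held between 291346 and 6345155 counts. In EQ, 1 count at the median depth corresponded to 0.494 counts per 1000000 (CPM) in EC and 0.508 CPM in TB. The labels were checked against marker lists. All 15 endothelial genes had a mean at least 4-fold higher in EC, as KDR, the VEGF receptor, at 1600 ± 710 CPM in EC and 4.27 ± 5.45 CPM in TB, and 7 of 11 compared trophoblast genes were at least 4-fold higher in TB, as VTCN1 at 3.64 ± 2.77 CPM in EC and 1142 ± 468 CPM in TB (SD over 38 EC and 48 TB cells). Of 12751 genes compared, 10.8% were at least 4-fold higher in EC and 16.02% in TB. CDX2 was detected in 1 TB cell and TP63 in 5, while the mesenchymal gene LUM reached 3042 ± 2423 CPM in TB. The trophoblast label thus rested on part of its list.

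The levels that genes of the other cell type reached served as a yardstick for weak signals. KDR and PECAM1 were detected in all 48 TB cells, at 0.267% and 1.14% of their EC means, and over the 15 endothelial genes the TB mean was between 0 and 10.4% of the EC mean, with a median of 0.252%. PECAM1 even passed 10 CPM in 37 of 48 TB cells, at a mean of 15.0 ± 11.2 CPM, and VTCN1 was detected in all 38 EC cells. Detection of a count or 2 in these deeply sequenced libraries was therefore reached by genes that mark the other cell type. A member was called detected in a cell at a rounded count of at least 1, and held at 10 CPM or more.

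Of the members, NANOG and GDF3 were neighbours on chromosome 12, 92.0 kb apart in GRCh38, with GDF3 at chr12:7689784-7695775 on the minus strand and NANOG at chr12:7787794-7799146 on the plus strand. NANOG was detected in every cell and GDF3 stood at 10 CPM or more in 7 EC cells, so the 250 bases upstream of their RefSeq starts (GRCh38.p14, each read 5′ to 3′ on the strand of its gene) are shown with matches to POU and SOX recognition letters in capitals. NANOG is read from chr12:7789152-7789401, plus strand, and GDF3 from chr12:7695776-7696025, minus strand.
NANOG: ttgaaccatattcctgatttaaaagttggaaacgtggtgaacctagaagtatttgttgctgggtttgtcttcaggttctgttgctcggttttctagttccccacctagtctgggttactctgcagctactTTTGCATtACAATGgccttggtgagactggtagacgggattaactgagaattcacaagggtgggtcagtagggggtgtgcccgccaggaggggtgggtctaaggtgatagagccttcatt
GDF3: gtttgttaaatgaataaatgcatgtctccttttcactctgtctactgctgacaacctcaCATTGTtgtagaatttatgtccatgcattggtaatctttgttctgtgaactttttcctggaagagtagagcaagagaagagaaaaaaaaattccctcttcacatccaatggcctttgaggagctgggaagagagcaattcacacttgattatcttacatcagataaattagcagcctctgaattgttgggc

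The letters searched, on both strands, were TTTGCAT for POU factors, CATTGT for SOX factors and their composite, which is the SOX letters, 1 free base and the POU letters reversed and complemented, and so overlaps both. TTTGCAT was present in 3.94% of 35116 RefSeq promoters of this length, CATTGT in 9.29%, and the composite in 2 of 35116. The NANOG promoter held the composite, beginning 120 bases before the start on the minus strand, and the GDF3 promoter held CATTGT alone, 191 bases before the start. Promoters were found for 5 of the members: SOX2 had TTTGCAT 100 bases before its start, 1 of the 2 LIN28B promoters had CATTGT, and DPPA4 had none of the 3. A match describes letters only and shows no binding.

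Some reads of most members matched more than 1 gene. RSEM, the program the authors used, divides such reads among genes, which leaves a fractional expected count as soon as 1 read is divided, so the share below does not give how much of a count was divided. Over 12354 genes of EQ the median gene was fractional in 44.4% of the libraries in which it was counted, and 24.05% of genes were fractional in at least 95%. POU5F1 and LIN28A were fractional in 100% of libraries, NANOG in 98.9%, DPPA4 in 97.9%, TDGF1 in 97.7% and SALL4 in 95.8%. The share was 36.5% for LIN28B, 14.8% for GDF3 and 0% for SOX2. SOX2 was counted in only 3 libraries and GDF3 in 27, the other members in 85 to 96. The genes of the median were counted in at least 10.

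Sliding a 51-base window, the read length after trimming, along 1 transcript per gene gave a measure of how much of each gene is shared. Since the reads were aligned to protein-coding genes, the windows that match another coding gene bear most directly on the counts: 87.0% for TDGF1, 79.5% for POU5F1 and 42.8% for NANOG, but 6.55% for LIN28A, 4.19% for SALL4, 3.70% for SOX2, 3.25% for DPPA4 and 0% for LIN28B and GDF3. With at most 2 mismatches, 96.3% of POU5F1 windows, 88.6% of TDGF1 windows and 60.4% of NANOG windows also matched elsewhere in the genome, where all 3 genes are known to have processed copies, and every window of the coding part did so for these 3 genes. The share was 56.6% for LIN28A, between 14.2% and 23.6% for SALL4, DPPA4, SOX2 and LIN28B, and 0% for GDF3. The part of this sharing in the levels of POU5F1, NANOG and TDGF1 was not tested. GDF3, SOX2 and LIN28B were the members whose counts were whole in most libraries that counted them, which were only 3 for SOX2.

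**Figure D1:**
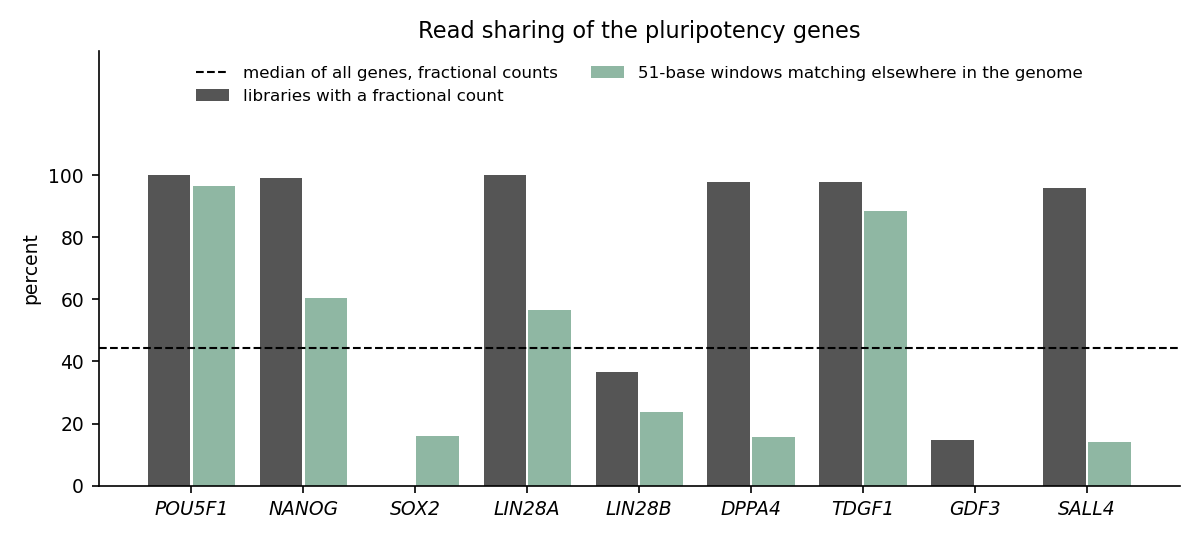
Read sharing of 9 members. Grey bars (percent) are the share of the EQ libraries counting the gene that had a fractional expected count, out of 3 for SOX2. Green bars (percent) are the share of 51-base windows of 1 transcript that match elsewhere in the genome with at most 2 mismatches. The dashed line is the median gene, 44.4%, for fractional counts. POU5F1 and TDGF1 stand high on both measures, and GDF3 has 14.8% and 0%.

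In EQ, 5 of 9 members were detected in every EC cell and 4 of 9 in every TB cell, where 19.9% and 19.4% of all genes were. LIN28A and NANOG were held in every EC cell and LIN28A in every TB cell, as were 5.23% and 4.48% of all genes. At 10 CPM in at least 50% of the cells, 5 members were held in each type (26.9% of all genes in EC and 30.9% in TB). The 9 members together summed to 122 CPM in the lowest EC cell, 644 CPM in the median and 2832 CPM in the highest, and to 110, 648 and 1428 CPM in TB, so the ranges overlapped over most of their length.

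Of the core factors, SOX2 had the fewest counts. SOX2 (chr3:181711925-181714436, plus strand, a gene of 1 exon) had no count in any of the 38 EC cells of EQ, which allows a share of up to 7.89% of cells, and no count in the passing EC cells of the other 2 experiments. Among all 45 EC cells of EQ, with those left out for quality, it was detected in 1 (2.22%). In TB it was detected in 2 of 48 cells (4.17%, exact 95% interval 0.509 to 14.3%, counting error only). Nearly all of that signal was in the cell TB 46, with 61 counts or 23.7 CPM, and the next cell had 0.789 CPM. TB 46 repeated this in the other libraries, at 24.5 CPM in EQ-Vary (78 counts) and with 48 counts in EQ-75%. Its other members lay within the range of the TB cells, with POU5F1 at 9.72 CPM, NANOG at 23.3 CPM and GDF3 at 0. The SOXB1 relatives SOX1 and SOX3 had no count in EC, and in TB SOX3 was detected in 1 cell at 1.501 CPM.

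POU5F1 (chr6:31164337-31180731, minus strand) was low in most cells of both types. In EC it was 1.07 CPM in the lowest cell, 12.5 CPM in the median and 384 CPM in the highest, and in TB 0, 8.48 and 125.5 CPM. It was detected in 38 of 38 EC and 46 of 48 TB cells and held in 26 and 17. The means were 28.5 ± 63.0 CPM in EC (SD, n = 38) and 13.4 ± 20.5 CPM in TB (SD, n = 48), a ratio of 2.13, and the ranges overlapped. The EC mean rested on few cells: EC 15 alone carried 35.5% of the summed CPM, and without it the mean was 18.9 ± 21.7 CPM and the ratio to TB 1.41. Its TB mean was under that of PECAM1 in TB (15.0 CPM) and above those of the other 14 endothelial genes there, which were at most 8.44 CPM. The TB mean was 46.9% of its EC mean, outside the 0 to 10.4% of the endothelial genes.

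NANOG, the third core factor, was detected in every cell, and its mean and median CPM were above those of POU5F1 in both types. Single cells went the other way, as EC 30 with POU5F1 at 122 CPM and NANOG at 58.0 CPM. Per kb of transcript, as given below, the medians were in the reverse order. In EC NANOG was 11.9 CPM in the lowest cell, 33.7 CPM in the median and 1502 CPM in the highest. In TB it was 4.57, 27.4 and 170 CPM. The lowest EC cell was above the 10 CPM limit and 2 of 48 TB cells fell under it. Means were 83.2 ± 239 CPM in EC and 33.99 ± 29.8 CPM in TB, with 47.5% of the EC sum in EC 15; without EC 15 the EC mean was 44.8 ± 37.03 CPM, and the ratio to TB was 1.32 in place of 2.45. In TB the highest NANOG values were in TB 9 (170 CPM, 90 counts) and TB 7 (127 CPM, 63 counts), both with shallow libraries of 529637 and 494169 counts. Over the cells NANOG went against the total count, with a Spearman rho of -0.308 in EC and -0.459 in TB. So did TDGF1 (-0.379 and -0.251) and, in TB, POU5F1 (-0.307), which was at -0.076 in EC. SALL4 went the other way, at 0.080 in EC and 0.176 in TB. In EQ-Vary NANOG was at -0.387 in EC and -0.168 in TB, and POU5F1 in TB at 0.117. Depth thus moved with the NANOG level in EQ, and its part was not tested.

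Nearly all cells of both types held LIN28A and SALL4. LIN28A (chr1:26410817-26429728, plus strand) was 56.8 CPM in the lowest EC cell, 257 CPM in the median and 752 CPM in the highest, and 31.3, 235 and 1003 CPM in TB. The means, 279 ± 180 CPM in EC and 287 ± 189 CPM in TB, differed by far less than the spread between cells, and the ranges lay over each other. SALL4 (chr20:51782331-51802521, minus strand) was 6.41 CPM in the lowest EC cell, 106 CPM in the median and 1312 CPM in the highest, and 6.78, 124 and 557 CPM in TB. It was held in 34 of 38 EC and 46 of 48 TB cells, with means of 232 ± 288 and 152 ± 124 CPM. The mean of SALL4 was higher in EC and the median higher in TB, and the highest EC cells, EC 43 at 1312 CPM and EC 24 at 929 CPM, were above every TB cell.

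LIN28B and DPPA4 were the members with both the mean and the median higher in TB. LIN28B (chr6:104936616-105083332, plus strand) was 0 in the lowest EC cell, 6.36 CPM in the median and 276 CPM in the highest, and 0, 31.3 and 372 CPM in TB. The EC cells were spread between those with few counts and those with much: 7 of 38 had none, 18 were at 10 CPM or more and 9 at 100 CPM or more, against 36 and 12 of 48 TB cells. The ratio of medians, TB over EC, was 4.92, and that of means 1.596. DPPA4 (chr3:109326144-109337546, minus strand) was 0.501 CPM in the lowest EC cell, 10.3 CPM in the median and 199 CPM in the highest, and 1.71, 62.3 and 400 CPM in TB. It was held in 19 of 38 EC and 40 of 48 TB cells, and TB exceeded EC 6.02-fold by medians and 2.84-fold by means. Every value range of the 2 genes overlapped between the cell types.

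TDGF1 and GDF3, which act in NODAL signalling, were both low in most cells, but only GDF3 had cells far above the rest in EQ. TDGF1 (chr3:46574534-46582457, plus strand) was 0 in the lowest EC cell, 4.70 CPM in the median and 22.3 CPM in the highest, and 0, 4.73 and 22.3 CPM in TB. Its means of 6.01 ± 4.97 and 5.79 ± 4.73 CPM were under the TB means of the endothelial genes FLT1 (8.44 CPM) and PECAM1 (15.0 CPM) and above those of the other 13. The TB mean of TDGF1 was 96.4% of its EC mean, and with 87.0% of its windows shared with another coding gene, how much of this level is background was not tested. GDF3 was 0 in the lowest EC cell, 0.280 CPM in the median and 700 CPM in the highest, and 0, 0 and 1.88 CPM in TB. It was detected in 20 of 38 EC cells (52.6%, exact 95% interval 35.8 to 69.0%) and 5 of 48 TB cells (10.4%, 3.47 to 22.7%), but held in 7 and 0.

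The 7 cells that held GDF3 repeated it. They were EC 13 at 700 CPM, EC 43 at 560, EC 7 at 350, EC 26 at 239, EC 24 at 173, EC 9 at 50.5 and EC 25 at 18.3 CPM in EQ, and in EQ-75% all but EC 25, then at 5.29 CPM, remained above 10 CPM. The highest 3 carried 76.4% of the EC sum. The GDF3 mean in TB, 0.0706 ± 0.287 CPM, was 0.127% of the EC mean of 55.4 ± 156 CPM, a share within that of the endothelial genes. That share is set largely by the few high EC cells, and whether the TB counts were background was not tested.

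**Figure D2:**
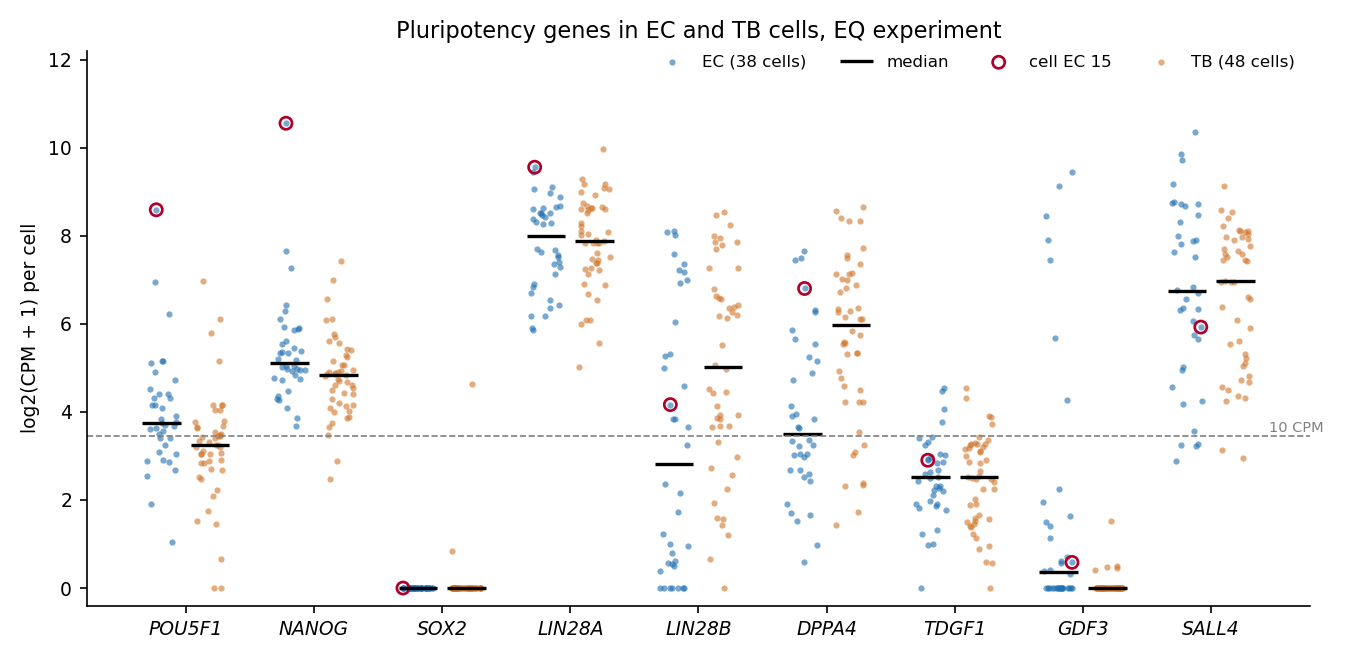
Level of each member per cell in EQ, as log2(CPM + 1), for 38 EC cells (blue) and 48 TB cells (orange); black lines are medians, the dashed line is 10 CPM and red rings mark EC 15. The median of DPPA4 is 62.3 CPM in TB and 10.3 CPM in EC, SOX2 is at 0 in all EC cells, and GDF3 reaches 700 CPM in EC and 1.88 CPM in TB.

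By means, 1 of 8 members compared was past 4-fold higher in EC, GDF3, where 10.8% of 12751 genes with a mean of at least 1 CPM in either type were, and 0 of 8 were past 4-fold higher in TB, where 16.02% of genes were. Over the 8 members the median log2 ratio of means, EC over TB with 0.1 CPM added, was 0.33, and over all 12751 genes it was -0.07. Levels between genes were compared per kilobase of 1 GENCODE transcript. The median CPM per kb in EC was highest for LIN28A (64.7), followed by SALL4 (20.3), POU5F1 (8.87), NANOG (6.51), DPPA4 (3.71), TDGF1 (2.40), LIN28B (1.17) and GDF3 (0.226). In TB the order was LIN28A (59.2), SALL4 (23.8), DPPA4 (22.3), POU5F1 (6.02), LIN28B (5.75), NANOG (5.30) and TDGF1 (2.42), with GDF3 and SOX2 at 0. Neighbours in both orders overlapped in their ranges, and the place of NANOG depends on its long annotated transcript of 5182 bases.

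The same cells held several members. In EQ the median cell of either type held 5 members at 10 CPM or more, with a range of 2 to 7, and 22 of 38 EC cells (57.9%) and 34 of 48 TB cells (70.8%) held 5 or more. The usual set was NANOG, LIN28A and SALL4 with some of POU5F1, DPPA4 and LIN28B. Every cell that held POU5F1 also held NANOG, 26 of 26 in EC and 17 of 17 in TB, but NANOG was held by 38 and 46 cells, so POU5F1 accompanied 68.4% of NANOG-holding EC cells and 36.96% of NANOG-holding TB cells. Both were at 100 CPM or more in 1 cell of each type, EC 15 and TB 7. No cell held POU5F1, NANOG and SOX2 together in EQ, and 1 TB cell, TB 46, did so in EQ-Vary and EQ-75%. Of the 7 cells holding GDF3, 6 held POU5F1 and 6 held SALL4, shares of 23.1% of POU5F1-holding and 17.6% of SALL4-holding EC cells.

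**Figure D3:**
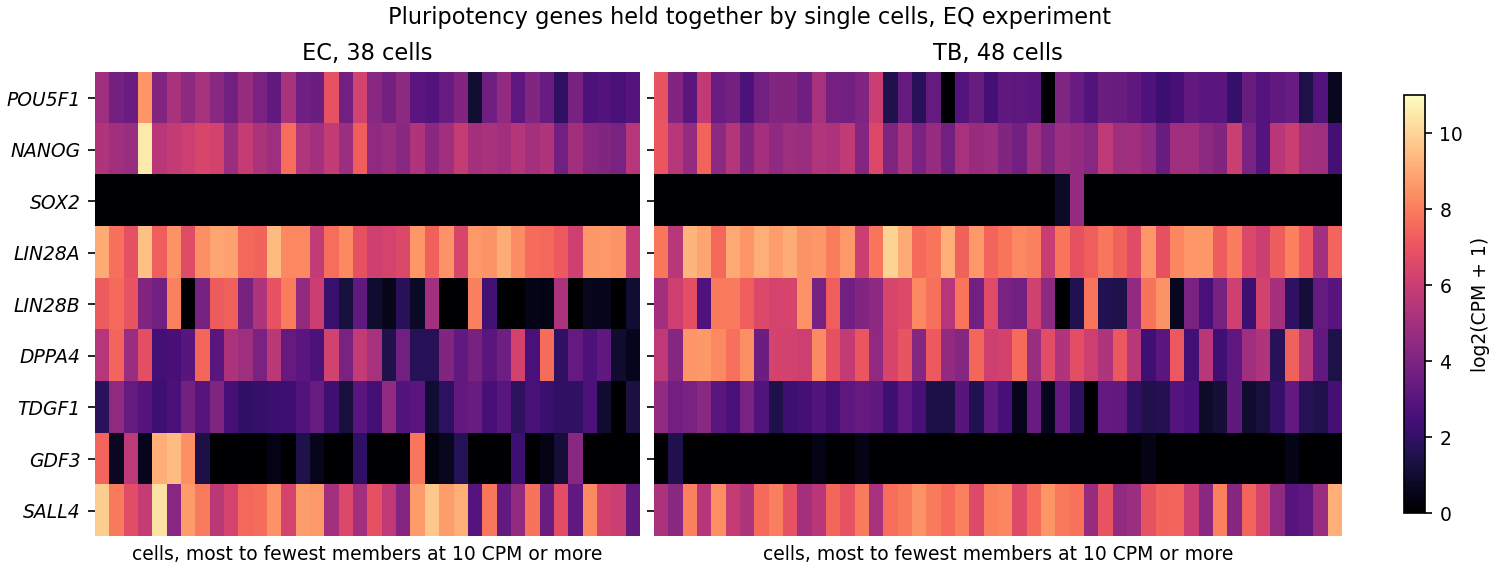
Members (rows) in single cells of EQ (columns), 38 EC cells left and 48 TB cells right, each ordered from most to fewest members held; colour is log2(CPM + 1). The LIN28A, SALL4 and NANOG rows are filled across both panels, SOX2 is dark but for TB 46, and GDF3 is bright in a few EC columns.

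Across cells the levels of most members were little correlated with each other. Over the 28 pairs of members that varied in EC the median Pearson correlation of log2(CPM + 1) was 0.123, and over 36 pairs in TB 0.0635. POU5F1 with NANOG was the highest pair in both, at 0.785 in 38 EC cells and 0.673 in 48 TB cells (Spearman 0.620 and 0.549). Without EC 15 the EC value was 0.651. In EQ-Vary the pair was at 0.574 in EC, 0.372 without EC 15, and 0.613 in TB, and in EQ-75% at 0.784 in EC and 0.525 in TB. In TB, NANOG with TDGF1 followed at 0.580, and NANOG with SALL4 was the lowest at -0.489. These cells share a culture and a chip, the same libraries give both values, and NANOG went against depth in both types, so the correlations are descriptions only.

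The 5 genes with the highest correlation to NANOG in EC were KIAA0513 (0.828), POU5F1 (0.785), MCM2 (0.784), CD38 (0.780) and CCDC113 (0.777); without EC 15 these were 0.644, 0.651, 0.449, 0.682 and 0.592. Those to POU5F1 were NANOG, KCTD7 (0.713), SLC4A8 (0.708), CD38 (0.697) and ZNF563 (0.690). Without EC 15 they were at 0.651, 0.575, 0.505, 0.568 and 0.485. In TB the genes nearest to NANOG were CXCL16 (0.832), ZNF556 (0.816), CA5A (0.815), CD84 (0.807) and PPIL6 (0.807). For NANOG and for POU5F1, 4 of 5 such genes in EC and 5 of 5 in TB were fractional in at least 95% of libraries, as were 27.8% of the 9620 EC genes and 26.4% of the 9955 TB genes compared. For GDF3, whose nearest genes in EC were STK39 (0.813, and 0.855 in EQ-75%), FASTKD2 (0.639) and SLC22A15 (0.626), the count was 0 of 5. The count did not follow a member's own fractional share throughout: LIN28B, fractional in 36.5% of libraries, had 4 of 5 in EC and 0 of 5 in TB, and LIN28A, fractional in all, had 2 of 5 in each. SALL4 had 1 of 5 in EC, where RPA1 was first at 0.700, and 0 of 5 in TB, DPPA4 3 of 5 and 4 of 5, and TDGF1 5 of 5 in TB. The part of read sharing in these correlations was not tested.

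One cell, EC 15, set the upper end of several members. Its library of 2007474 counts had POU5F1 at 384 CPM (771 counts), where the other 37 EC cells reached at most 122 CPM, NANOG at 1502 CPM (3016 counts), where they reached 202 CPM, and LIN28A at 752 CPM, the highest in EC. SOX2 was 0, GDF3 0.498 CPM and SALL4 59.8 CPM, below the median of the other cells (108 CPM). In EQ-Vary and EQ-75% the same cell had NANOG at 1507 CPM in each, and POU5F1 at 359 and 214 CPM. Its LIN28A was 743 CPM in EQ-Vary, again the highest of EC, but 367 CPM in EQ-75%, where EC 37 reached 742 CPM.

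EC 15 also had counts of further genes of the pluripotency and germ cell lists, some of them above all other EC cells and some, as SOX17 and PRDM1, not. The germ cell list summed to 2238 CPM, and 1 of the other 37 EC cells was above it, at 3149 CPM. PRDM14, a repressor active in pluripotent and germ cells, was 192 CPM, with the other EC cells at 13.01 CPM or less. L1TD1, an RNA-binding protein of stem cells, was 664 CPM against at most 142 CPM, and PIM2 was 860 CPM against at most 106 CPM. UTF1 had 8 counts (3.99 CPM) and was 0 in all other EC cells, while TERT, FGF4 and FOXD3 were 0 in EC 15 too. Of the germ cell list, TFAP2C was 995 CPM against at most 52.0 CPM, NANOS3 83.2 CPM against at most 0.363 CPM, SOX17 229 CPM, second of the 38 cells, and PRDM1 816 CPM, sixth; DND1, DAZL and DDX4 were 0. KLF4 was 94.1 CPM and SOX15 43.8 CPM, where the other EC cells reached 2.12 and 2.45 CPM.

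The endothelial genes of this cell were low. Their sum was 358 CPM, below all other 37 EC cells (2756 to 11593 CPM), with KDR at 51.3 CPM, FLI1 at 26.9 CPM and CDH5 at 34.4 CPM under every other EC cell, PECAM1 at 99.6 CPM and CD34 at 37.9 CPM. TIE1 and APLN had no count. TEK (4.48 CPM) and ERG (3.99 CPM) lay within the range of the TB cells, which reached 6.07 and 5.47 CPM. KDR, CDH5, PECAM1, CD34 and FLI1 were above every TB cell, where the highest were 27.4, 8.21, 77.4, 21.9 and 24.6 CPM. Of the 15 genes of the endothelial list, 7 were held in EC 15, and a median of 12 in the other EC cells. The keratins KRT8 (1696 CPM) and KRT18 (1254 CPM) were the highest of EC in EQ, and the trophoblast list, which also holds TFAP2C, summed to 3965 CPM, above the other 37 EC cells (112 to 1716 CPM) and within the range of the TB cells (1743 to 11858 CPM). Of the 12 genes of that list with values, 3 were held in EC 15. VTCN1 was 2.49 CPM, within the range of the other EC cells, and the mesenchymal LUM 0.996 CPM, the lowest of EC. Several of these values repeated in the other libraries of the cell, with NANOS3 at 65.3 and 68.4 CPM, PRDM14 at 193 and 164 CPM and the endothelial sum at 380 and 250 CPM. Since the library was singled out after its values were seen, they are a description of 1 cell.

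**Figure D4:**
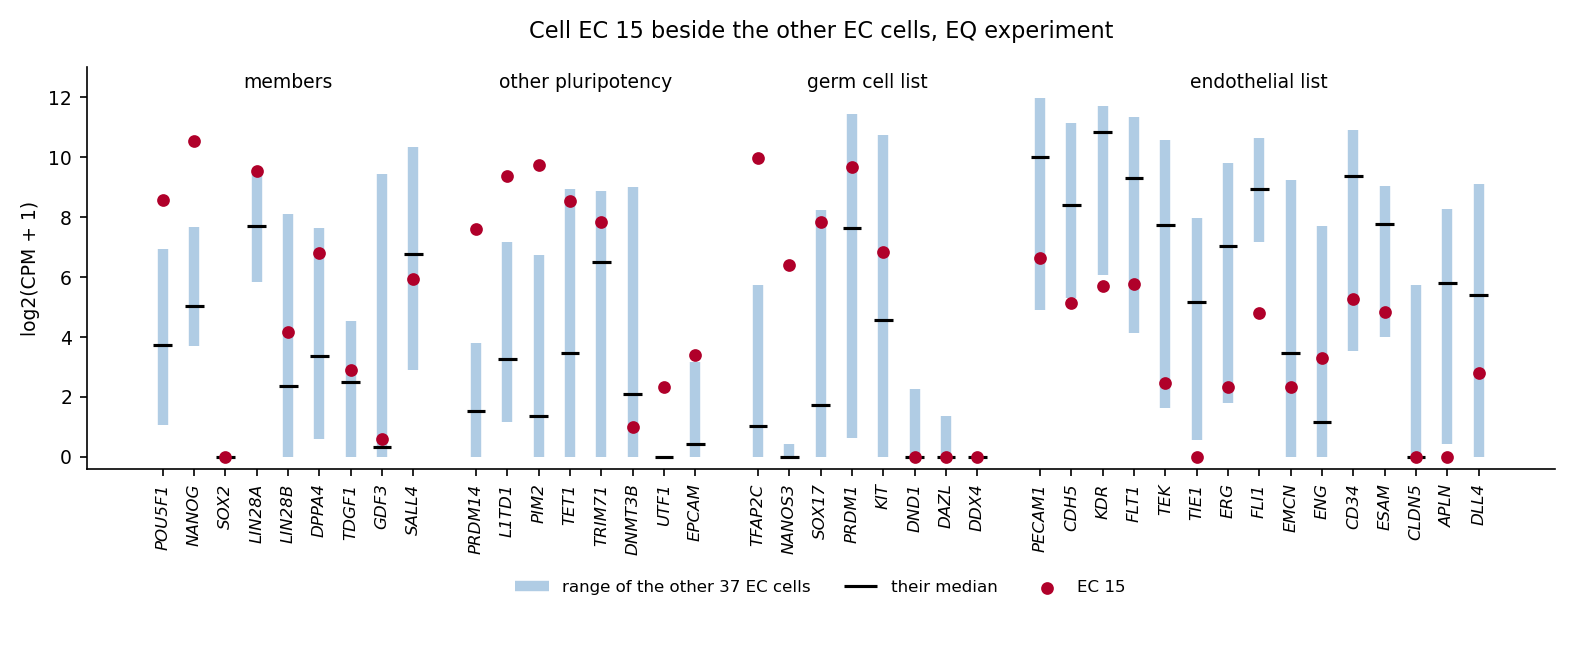
EC 15 (red points) beside the range (blue bars) and median (black lines) of the other 37 EC cells in EQ, as log2(CPM + 1), for members, further pluripotency genes, the germ cell list and the endothelial list. NANOG, PRDM14, TFAP2C and NANOS3 lie above the bars, and KDR and FLI1 below them.

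Of 22 further pluripotency genes on the list, 20 had values, and FOXD3, TERT and FGF4 had no count in any cell of either type. Among the genes of this list reported here, ZIC2, through 1 cell at 139 CPM, and OTX2 were past 4-fold higher in EC, and L1TD1 and EPCAM in TB. OTX2, a factor of the primed state and of anterior neural tissue, was held in 3 EC cells and reached 343 CPM in EC 13, the cell with the most GDF3. L1TD1 was 37.2 ± 109 CPM in EC and 426 ± 269 CPM in TB, and EPCAM, an epithelial adhesion molecule, 1.06 ± 2.13 and 174 ± 109 CPM. The de novo methyltransferase DNMT3B was held in 16 EC and 17 TB cells, and the LIN28 partner TRIM71 in 29 and 40. Of 8 genes of the naive state with values, DPPA5 and DNMT3L had no count, DPPA3 was past 4-fold higher in EC and KLF5 in TB.

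In the NODAL pathway, NODAL and the antagonist CER1 had no count in either type, and LEFTY1, a target and inhibitor, was detected in 2 EC cells and 1 TB cell. The receptor ACVR2A was 159 ± 273 CPM in EC and 428 ± 301 CPM in TB, ACVR2B 116 ± 135 and 133 ± 119 CPM, and SMAD2, which carries the signal to the nucleus, 669 ± 373 and 940 ± 456 CPM. None of the 6 genes compared was past 4-fold in either direction. Over all genes compared, 10.8% were past 4-fold higher in EC and 16.02% in TB. In lists as short as these, a count of 0 is therefore no trait of a pathway. All 9 genes of the LIN28 and let-7 list were compared and none was past 4-fold: HMGA2, a let-7 target, was 198 ± 206 CPM in EC and 118 ± 126 CPM in TB, IGF2BP1 192 ± 237 and 141 ± 122 CPM, and IGF2BP3 88.3 ± 113 and 179 ± 118 CPM. SALL1, a relative of SALL4, was past 4-fold higher in EC at 38.2 ± 87.1 CPM against 0.254 ± 1.45 CPM, and SALL2 and SALL3 were not.

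Of the primitive streak and mesoderm list, T (brachyury), MIXL1, EOMES, GSC, MESP2, FGF8 and FOXF1 had no count in either type, and of 5 genes of that list compared, WNT3, SP5 and the blood and endothelial factor TAL1 were past 4-fold higher in EC and HAND1 in TB. Of 6 endoderm genes compared, SOX17, GATA4, CXCR4 and HHEX were past 4-fold higher in EC, and FOXA1 in TB through 1 cell. Of these, SOX17, CXCR4 and HHEX also act in endothelium. For all these lists the share over all genes was 10.8% higher in EC and 16.02% higher in TB.

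Over the 82 cells that passed in all 3 experiments, detection of the 9 members agreed between EQ and EQ-Vary in 95.8% of 738 pairs of member and cell, and between EQ and EQ-75% in 94.99%. These shares are set largely by members detected in all of these cells, NANOG, LIN28A and SALL4, or in nearly none, SOX2; GDF3 in EC agreed in 78.4% and 62.2% of cells, and LIN28B in EC in 81.1% and 86.5%. Levels of NANOG, LIN28A, LIN28B, DPPA4 and SALL4 in EQ and EQ-75% correlated over the cells at 0.909 to 0.987, where the median gene was at 0.965 in EC and 0.972 in TB. For POU5F1 the values were 0.885 and 0.807, and for TDGF1 0.576 and 0.750. GDF3 correlated at 0.973 in EC, but 12 of 37 EC cells had counts in EQ and none in EQ-75%, with at most 5 counts in EQ.

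Of the 8 members other than SOX2, which was at 0 in nearly all cells, 7 had a mean log2 difference, EQ-75% minus EQ in the same cells, below 0 in both cell types, as had 79.6% of genes with a mean of at least 5 CPM in EC and 72.6% in TB. LIN28A was lower in 31 of 37 EC cells, with a mean log2 difference of -0.33 ± 0.32 (SD), and in 40 of 45 TB cells, at -0.26 ± 0.22, while the median of all genes with a mean of at least 5 CPM was -0.13 in EC and -0.08 in TB. LIN28B was not lower, at 0.00 ± 0.59 in EC and 0.06 ± 0.58 in TB.

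**Figure D5:**
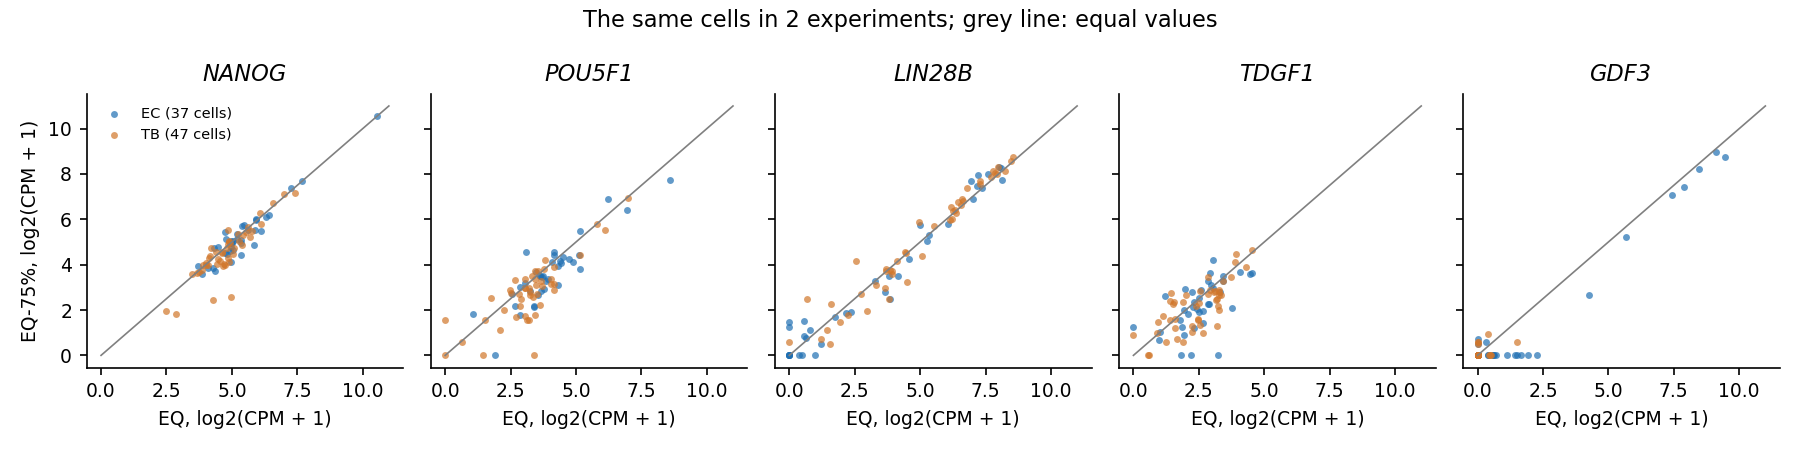
Level of 5 members in the same cells in EQ (horizontal) and EQ-75% (vertical), as log2(CPM + 1), for the 37 EC (blue) and 47 TB (orange) cells passing in both; the grey line marks equal values. LIN28B and high GDF3 values follow the line, TDGF1 scatters, and low GDF3 values in EQ lie at 0 in EQ-75%.

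The library labelled TB 48 stood apart in EQ-75%. The libraries of this label had 8572 counts in EQ and 7781 in EQ-Vary and were left out there, and 1086329 in EQ-75%, where it was kept. Their profiles were unlike: VTCN1 was 1167 CPM in EQ (10 counts), 900 CPM in EQ-Vary (7 counts) and 9.21 CPM in EQ-75%, and LUM 3033, 3599 and 294 CPM. TDGF1 was 1210 CPM in it (1314 counts), and at most 24.03 CPM in the other 49 TB cells. Its SALL4, at 466 CPM, was the highest of TB and its LIN28A, at 11.05 CPM, the lowest. Its DPPA4 was 2.76 CPM, 46th of 50 cells. VTCN1, TFAP2C (4.60 CPM) and L1TD1 (9.21 CPM) were under every other TB cell, and EPCAM was 400 CPM. Of the other trophoblast genes, KRT8 (814 CPM), KRT18 (932 CPM) and GATA3 (103 CPM) lay within the range of the other 49 TB cells. ISL1 (214 CPM) was 10th and GATA2 (43.3 CPM) 12th of 50 cells, and CDX2 (18.4 CPM) was the highest. KDR and CD34 were 0, as in some other TB cells. With it the TB mean of TDGF1 in EQ-75% was 29.01 ± 170 CPM and 5.83-fold that of EC, past 4-fold as were 16.4% of genes there (10.2% were higher in EC), and without it 4.92 ± 5.02 CPM, against 4.98 ± 4.04 CPM in EC.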

How the data were processed

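The authors trimmed reads to 51 bases, aligned them with Bowtie 1.2.3, at most 2 mismatches, to protein-coding Ensembl genes of GRCh38 (Ensembl version not given in the sources used here), and deposited unnormalized expected counts per gene from RSEM 1.2.31, 1 table for each of 3 experiments. Each deposited column is 1 cell, matched by its title.

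Expected counts were rounded and divided by the cell's total to give counts per 1000000 (CPM). Cells were kept at a log10 total of at least 5.4 and at most 31% of counts in the top 50 genes, after the study. Detected means a rounded count of at least 1 and held means 10 CPM. Ratios of means were read at 4-fold among genes with a mean of at least 1 CPM in either type, since 1 culture per type allows no test. Intervals are exact binomial (Clopper-Pearson, 95%) and cover counting error only; the upper limit at 0 is 3 cells of the total. Members and gene lists were chosen with earlier results of these data known. The rule for named genes covered all members, list genes past 4-fold or of the highest mean, and the cells holding most members. It also covered the 5 genes of highest Pearson correlation of log2(CPM + 1) with a member (mean of at least 5 CPM, member held in at least 5 cells). The text names all members but only some of the other genes and cells of the rule. A few list genes beyond these (such as DNMT3B, TRIM71, NODAL and UTF1) and the cells EC 15, TB 46, TB 48, TB 7 and TB 9 were chosen after their values were seen. GENCODE v44 and RefSeq (GRCh38.p14) gave coordinates and promoters. Python 3.11.15, numpy 2.4.6, pandas 2.3.3 and scipy 1.17.1 were used, and the calculations were tested on simulated data. Some results of the further pluripotency list are not reported here.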

Additional observations from a re-analysis of the deposited data

How the results depend on the processing

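No paired analysis was possible because EC and TB are different cells, whose shared numbers pair nothing, and each type was 1 sample in each experiment with no test to block; the same cells in different experiments were compared cell by cell. Of 44 alternatives to 10 main results, 37 left the value within its range and 7 moved it. Of 212 alternatives to 47 values of single members, 190 and 22 did so. The range was the SD over cells for mean levels, log2 ratios and median members held. It was the exact interval for shares and a fixed fold for counts of members. These ranges are wide. The changes of sign given below for SALL4 and LIN28A, and for TDGF1 by medians, counted as within them, so the tally does not show stability. GDF3, past 4-fold, kept its direction. Members under 4-fold did not all keep theirs: the log2 ratio of EC over TB went from 0.61 to -0.23 by medians for SALL4, from 0.05 to -0.01 by medians and -2.52 in EQ-75% for TDGF1, and from -0.04 to 0.13 by medians, 0.07 with size factors and 0.01 in EQ-75% for LIN28A. With all 96 cells the SOX2 mean in EC was 0.112 CPM in place of 0. The share of cells holding 5 or more members depended on the level required: at 5 CPM it was 92.1% in EC and 95.8% in TB, and at 50 CPM 2.63% and 0%. By median in place of mean CPM, 0 members were past 4-fold higher in EC and 2, LIN28B and DPPA4, higher in TB; in EQ-75%, 1 member, TDGF1, was past 4-fold higher in TB, and none without TB 48, an alternative chosen after seeing the data, as were those leaving out EC 15 and the 3 members POU5F1, NANOG and TDGF1. With the 6 members left, the median cell held 3 in EC and 4 in TB. A limit of 5 counts, or thinning to 250000 counts per cell, can only lower detection. GDF3 in EC fell to 21.1% of cells at 5 counts or more and to 27.9% at 250000 counts. LIN28B in EC fell to 55.3% and 58.1%. The lack of culture replicates, of undifferentiated cells analysed here and of uniquely assigned reads for POU5F1, NANOG and TDGF1 limits every comparison.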
